A study of Xenopus laevis with 74 samples.

Results

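The genes of the Notch pathway that are named as ligands, receptors or targets were followed through the transit of Xenopus laevis animal pole cells to 4 lineage states. Members were all rows of the deposited tables whose symbol starts with notch, dll, jag, hes or hey and a digit, or with esr-, together with dlc. The count table held 56 such rows of 45656, of which 55 reached 15 counts in some library and entered the tests across 27424 genes. The TPM table (a transcript level scaled to gene length and to the sum of the library) held 58 such symbols of 46013, which make up 30 genes when the L and S copies, the pairs of genes that this allotetraploid frog keeps from its ancestral genomes, are summed. Of the 69 symbols found in either table, 45 were in both. The 30 genes are 5 ligands (dll1, dll4, dlc, jag1, jag2), 4 receptors (notch1 to notch4) and 21 genes of the Hes, Esr and Hey families. Among the latter, hes5.4, hes5.6 and hes5.8 had no count row under those names, so their levels are given without a test.

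The libraries came from ectodermal explants (animal caps) cut from wild-type blastula embryos, pooled in groups before RNA isolation, and collected at 6 Nieuwkoop and Faber stages, namely stage 9 (late blastula), stages 10, 10.5, 11 and 12 of gastrulation, and stage 13 (early neurula). Epidermal explants were left untreated, neural explants received recombinant noggin (an antagonist of BMP), ventral mesoderm explants received BMP4/7 heterodimer, and endoderm explants received activin. Treatment with activin or the BMP heterodimer began at stage 9, the first stage collected, and the time at which noggin was added is not given. Differences between lineages at stage 9 are therefore not read as responses to treatment. Each of the 24 groups had 3 replicates, apart from ventral mesoderm at stage 11 with 5, which gave 74 libraries. All explants shared wild-type animal caps as their starting tissue, with embryos from a single frog per day, and the age of the embryos is given by stage alone. The labels and the methods gave the doses in different units, so doses are not repeated here. The neural explants were kept in a medium low in calcium and magnesium while the other explants were kept in a standard saline, so the effect of noggin and that of the medium cannot be told apart. All ventral mesoderm libraries, and none of the others, were sequenced on a second instrument, so that lineage and the sequencer cannot be told apart either.

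Notch signaling passes between touching cells. A Delta or Jagged ligand on a sending cell binds a Notch receptor on its neighbour, the intracellular part of the receptor is cut free and enters the nucleus, and there it joins the DNA-binding protein Rbpj to switch on target genes, among them the Hes, Esr and Hey repressors of the basic helix-loop-helix class. In lateral inhibition these repressors lower Delta genes and proneural genes in the receiving cell, and in the presomitic mesoderm they take part in the segmentation clock. In Xenopus skin, Notch limits how many cells become multiciliated cells and ionocytes. Not every Hes gene answers to Notch, and Hes6 proteins are known to counter Hes1.

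Counts on genes ranged from 11938338 to 23215739 in the 74 libraries. The summed level of 8 neural markers at stage 13 was 1180 to 2960 TPM in neural explants against 105 to 578 in the other lineages, and that of endoderm markers was 5550 to 6610 TPM in endoderm explants against 42.8 to 483 elsewhere. Epidermal markers summed to 10000 to 21600 TPM in epidermal explants, and they were also at 6450 to 11600 TPM in ventral mesoderm explants, where the ventral mesoderm markers summed to 2250 to 3800 TPM against 1980 to 2270 in epidermal explants. Hence the libraries labelled ventral mesoderm carried the epidermal markers as well, with all 8 of those found at 10 TPM or more. Neural explants had 2970 to 4920 TPM of them, with 7 of the 8 at 10 TPM or more, and endoderm explants 583 to 1100 TPM. The ranges of the ventral mesoderm markers overlapped between ventral mesoderm and epidermal explants. Endoderm explants had 1210 to 1550 TPM of the ventral mesoderm markers. As in ventral mesoderm explants, 8 of the 9 found were at 10 TPM or more there. All 8 neural markers and all 9 endoderm markers reached 10 TPM in their own lineage at stage 13, and of the endoderm markers darmin was listed at 0 in the epidermal and ventral mesoderm libraries. A few libraries stood apart from their groups. In ventral mesoderm at stage 10.5, replicate 1 had 321 TPM of ventral mesoderm markers against 1470 and 1370 in the others. In ventral mesoderm at stage 13, replicate 1 had 95.6 TPM of segmentation genes against 720 and 719, and 482 TPM of multiciliated cell genes against 147 and 167. In neural explants at stage 13, replicate 1 had 2960 TPM of neural markers against 1180 and 1680, and 112 TPM of endoderm markers against 483 and 389. Tests that involve stage 13 of neural or ventral mesoderm explants are therefore also given without replicate 1, which was then left out of both groups compared. Replicate 1 was picked from these data, so a call made only without it shows dependence on replicates and does not replace the fit of all libraries. The paired fits of steps were not repeated without it, and ventral mesoderm at stage 10.5 is described by its single libraries. Since these are bulk samples, fewer cells of a type and less RNA per cell cannot be told apart in any result.

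Of the 30 genes, 23 reached a mean of 10 TPM in at least 1 group, the minimum used here for giving values per library. The other 7 were dll4, hes5.2, hes6.2, hey2, jag2, notch3 and notch4. The number of genes at 10 TPM or more was 11 at stage 9 in the epidermal, neural and ventral mesoderm explants and 14 in endoderm explants. By stage 13 it stood at 18 in ventral mesoderm, 15 in epidermal, 11 in endoderm and 10 in neural explants. The summed level of the 21 Hes, Esr and Hey genes in ventral mesoderm explants went from 531, 622 and 590 TPM at stage 9 to 929, 2106 and 1882 TPM at stage 13. In the other lineages the stage 13 sum lay between 458 and 910 TPM, which overlapped their own stage 9 range of 394 to 796 TPM.

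**Figure D1:**
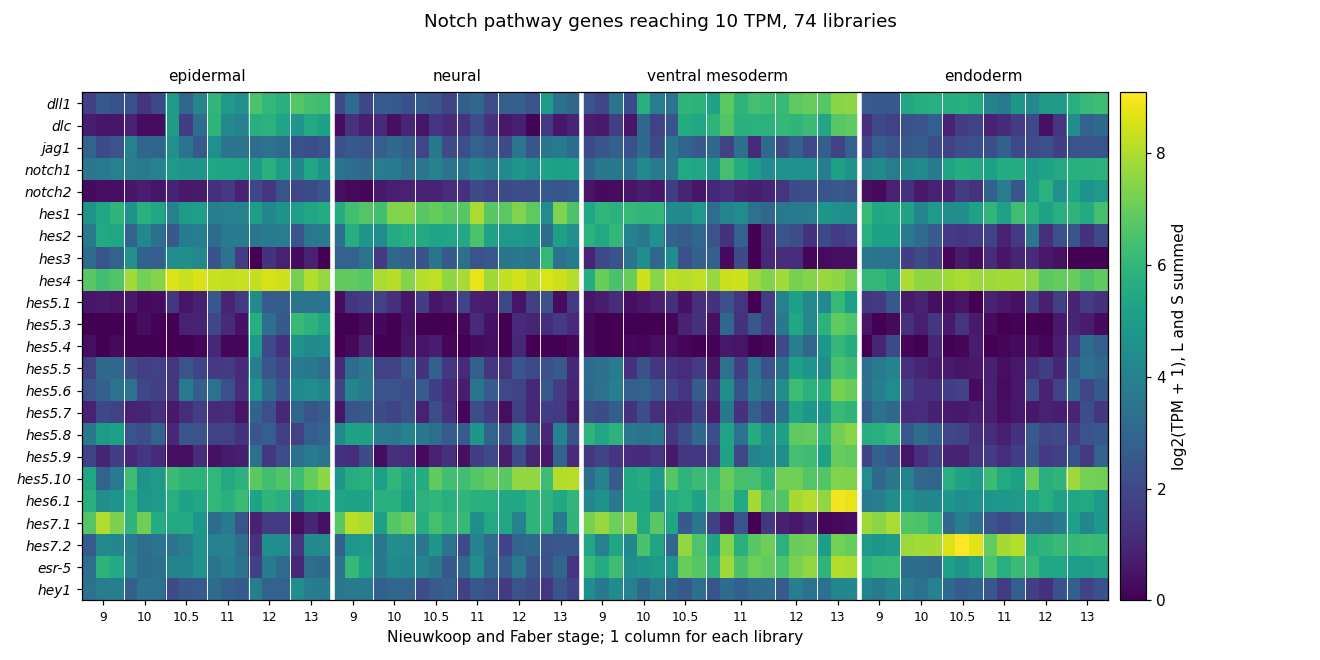
Heatmap of log2(TPM + 1), L and S summed, for the 23 Notch pathway genes that reached a mean of 10 TPM in at least 1 group (rows) in the 74 libraries (columns, ordered by lineage and stage). The hes5.3 to hes5.9 rows are brightest in ventral mesoderm at stage 13, hes7.2 is brightest in endoderm at stage 10.5 (388 to 542 TPM), and hes7.1 is bright at stage 9 in all lineages.

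The ligand dll1, a Delta that activates Notch in neighbouring cells, was low at stage 9 in every lineage and then parted by lineage. In epidermal explants it was at 2.33, 4.60 and 3.86 TPM at stage 9 and at 103, 83.5 and 78.4 TPM at stage 13. In ventral mesoderm explants it went from 4.30, 2.96 and 9.96 TPM to 104, 179 and 185 TPM. Stage 9 and stage 13 libraries did not overlap in either lineage, and the log2 fold change of the row dll1.S was 6.04 ± 0.40 (SE) in epidermal and 5.59 ± 0.49 in ventral mesoderm explants (adjusted p = 1.9e-05 and 5.5e-05). Without replicate 1 the ventral mesoderm value of dll1.S was 5.6 (adjusted p = 0.0014). The fold changes of the L copy in these lineages are not given. It held 30% of dll1 TPM in epidermal and 47.2% in ventral mesoderm explants at stage 13. With both copies summed, the rises were 4.30 in epidermal and 4.63 in ventral mesoderm explants on the log2(TPM + 1) scale. Neural explants stayed at 2.64 to 7.94 TPM through stage 12 and had 29.1, 9.47 and 6.90 TPM at stage 13. The high value there belonged to replicate 1, the library with the most neural marker RNA. The neural change was called for dll1.L (3.29 ± 0.87, adjusted p = 0.020) and not for dll1.S (1.82 ± 0.70, adjusted p = 0.071). Of the 3 fits that left out a replicate number, those without 1 and without 3 lost the call of dll1.L, which was at 1.78 without replicate 1 (adjusted p = 0.070).

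In endoderm explants dll1 rose, fell and rose again. It was at 5.17, 4.62 and 4.81 TPM at stage 9 and at 42.0, 49.7 and 52.0 TPM at stage 10, with no overlap (dll1.L 3.09 ± 0.20, adjusted p = 0.00027, called in all 3 fits that left out a replicate number). At stage 10 the epidermal and neural explants were still at 1.59 to 5.11 TPM. Ventral mesoderm explants were spread at that stage, at 3.10, 50.6 and 13.2 TPM, so that replicate 2 lay within the range of the endoderm libraries. Endoderm libraries then went from 49.0, 51.6 and 47.6 TPM at stage 10.5 to 16.0, 12.7 and 27.4 TPM at stage 11, which lay below every stage 10.5 value (dll1.S fell by 1.37 on the log2 scale, SE 0.22, adjusted p = 0.016, in 1 of 3 leave-out fits). By stage 13 they were back at 52.4, 70.5 and 75.1 TPM. Stage 11 was thus the low point between 2 higher periods, and the second rise, from stage 12 to stage 13, was 1.93 ± 0.19 for dll1.L (adjusted p = 0.0026, in 1 of 3 leave-out fits). The fall is given for the S copy and the rises for the L copy, and the course of each copy alone is not given. The L copy gave 20.3 ± 2.42% (SD) of dll1 TPM at stage 10.5 and 28.3 ± 4.97% at stage 11.

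The other Delta gene found at high levels, dlc, was at 0.06 to 3.40 TPM in all 18 neural libraries. In epidermal explants it was at 0.22 to 0.84 TPM through stage 10 and at 31.6, 2.13 and 8.49 TPM at stage 10.5. It then reached 52.6, 54.3 and 38.5 TPM at stage 12, where neural explants were at 0.50, 0.76 and 0.06 TPM. The stage 12 libraries of these lineages did not overlap, and the difference for dlc.L was -7.31 ± 0.50 in neural against epidermal explants (adjusted p = 2.8e-05), the call being kept in all 3 leave-out fits. Ventral mesoderm explants had 4.16, 48.1 and 41.1 TPM at stage 10.5, the low value again being the library with few ventral mesoderm markers, and 40.9, 104 and 115 TPM at stage 13. At stage 13, dlc.L was not called between ventral mesoderm and epidermal explants (1.38 ± 0.37 higher in ventral mesoderm, adjusted p = 0.11), but it was without replicate 1 (1.56, adjusted p = 0.0044). No member row was called in that comparison without replicate 2, and 2 rows were without replicate 3. Endoderm explants did not pass 5.53 TPM until stage 13, when they had 21.6, 6.33 and 7.86 TPM. From stage 9 to stage 13, dlc.L rose by 6.98 ± 0.34 in epidermal explants, by 6.88 ± 0.70 in those of ventral mesoderm and by 3.14 ± 0.53 in those of endoderm (adjusted p = 1.1e-05, 0.00015 and 0.0012), and its neural change of 0.98 ± 1.17 was not called (adjusted p = 0.53). Without replicate 1 the ventral mesoderm rise was 7.01 (adjusted p = 0.0014) and the neural change was -1.76, again not called (adjusted p = 0.10).

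The Jagged gene jag1 was the least abundant of the ligands that reached 10 TPM. Its highest group mean was that of epidermal explants at stage 11, with 22.4, 10.3 and 10.2 TPM, where neural explants had 3.60, 6.18 and 4.54 TPM and endoderm explants 3.51, 6.01 and 3.08 TPM. The epidermal libraries did not overlap with either, and jag1.L was lower in endoderm explants (-2.39 ± 0.39, adjusted p = 0.0038, called in all 3 leave-out fits). By stage 13 epidermal explants had 3.90, 3.57 and 4.12 TPM while neural explants had 10.5, 12.41 and 8.16 TPM. The order of epidermal and neural explants was thus the opposite of that at stage 11. The stage 13 difference in jag1.L was not called with all libraries (1.75 ± 0.46, adjusted p = 0.063), and it was without replicate 1 (1.89, adjusted p = 0.014). The ligand genes dll4 and jag2 stayed at 0.97 to 6.40 TPM and 0.34 to 2.57 TPM in all libraries.

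**Figure D2:**
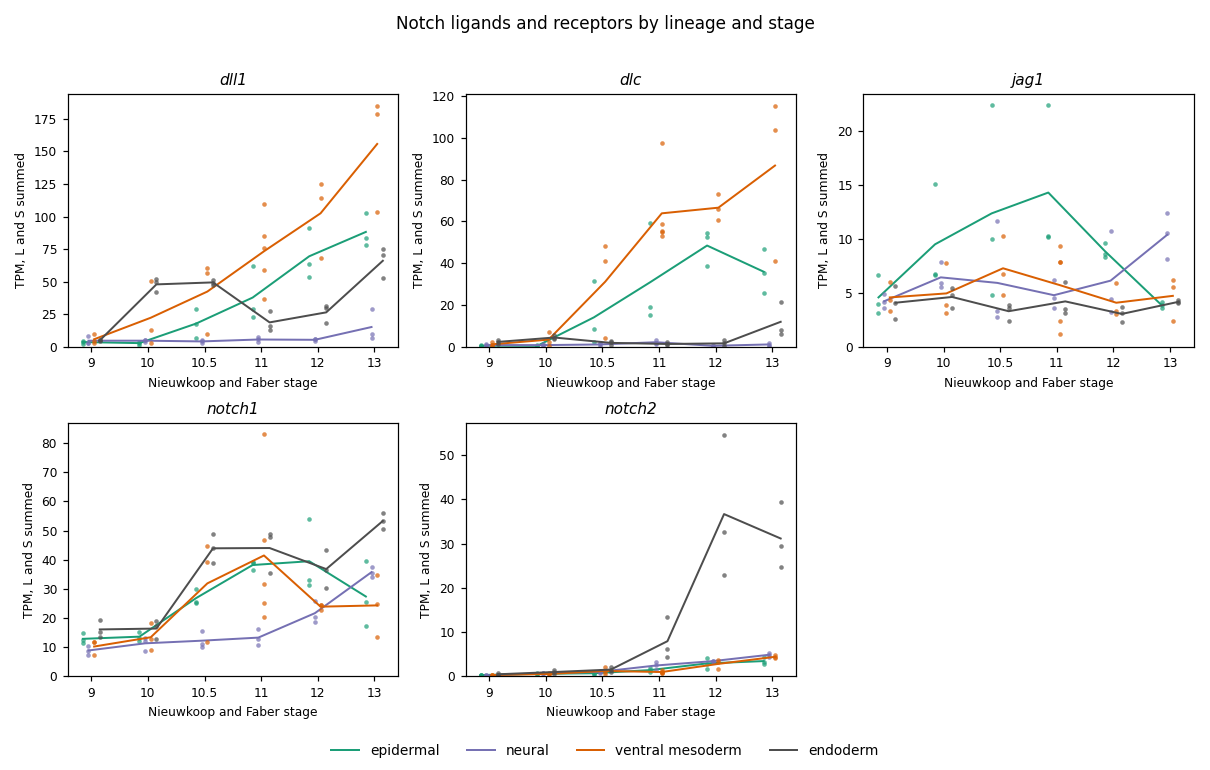
TPM (L and S summed) of dll1, dlc, jag1, notch1 and notch2 against Nieuwkoop and Faber stage, with 1 point per library and a line through each lineage's mean. Neural libraries did not pass 3.40 TPM of dlc, and notch2 passed 10 TPM in endoderm explants alone, reaching 22.8 to 54.5 TPM at stage 12.

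Of the receptors, notch1 was present from the start in every lineage, at 7.25 to 19.4 TPM at stage 9. In endoderm explants it was at 17.2, 19.0 and 12.9 TPM at stage 10 and at 39.0, 48.7 and 44.1 TPM at stage 10.5, and the stage 13 libraries had 50.6, 53.2 and 56.1 TPM. Epidermal explants were at 39.3, 38.8 and 36.4 TPM at stage 11, when neural explants had 10.8, 16.3 and 12.6 TPM. Neural explants thus lagged, and the stage 11 difference was -2.07 ± 0.21 for notch1.L and -1.57 ± 0.21 for notch1.S (adjusted p = 0.00094 and 0.0042, both called in all 3 leave-out fits). At stage 13 neural explants had 37.6, 34.1 and 35.5 TPM and epidermal explants 17.3, 39.4 and 25.3 TPM, so the groups overlapped and notch1.L differed by 0.02 ± 0.36 (adjusted p = 0.99), or by -0.54 without replicate 1 (adjusted p = 0.11). Endoderm explants lay above all other libraries at that stage, and notch1.L was 1.94 ± 0.25 higher there than in ventral mesoderm (adjusted p = 0.00079) and 1.17 ± 0.20 higher than in epidermal explants (adjusted p = 0.0027). Without replicate 1 the difference from ventral mesoderm was 1.71 (adjusted p = 0.00052). Against neural explants the difference of 1.12 ± 0.31 was not called (adjusted p = 0.065), and without replicate 1 it was (1.51, adjusted p = 0.0021).

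The receptor notch2 was nearly silent at stage 9, at 0.13 to 0.80 TPM, and rose furthest in endoderm explants. Endoderm libraries had 6.07, 13.4 and 4.34 TPM at stage 11, 32.7, 54.5 and 22.8 TPM at stage 12, and 39.4, 24.6 and 29.5 TPM at stage 13. The other lineages were at 1.59 to 4.11 TPM at stage 12 and at 2.75 to 5.32 TPM at stage 13, well below the lowest endoderm library. At stage 12, notch2.L and notch2.S were 3.09 ± 0.27 and 3.55 ± 0.51 higher in endoderm than in epidermal explants (adjusted p = 4.5e-05 and 0.0015). At stage 13 notch2.S was 3.13 ± 0.29 higher in endoderm than in ventral mesoderm (adjusted p = 0.00016) and 2.65 ± 0.28 higher than in epidermal explants (adjusted p = 0.00016), and these calls were kept in all 3 leave-out fits. The difference from neural explants (3.23 ± 0.60, adjusted p = 0.013) was kept in 1 of them, the fit without replicate 1 (4.09, adjusted p = 0.00022). Without that replicate notch2.S was 3.19 higher in endoderm than in ventral mesoderm explants (adjusted p = 8.1e-05). In the other lineages notch2 rose as well from its low start, with notch2.S up by 5.79 ± 0.43 in epidermal, 6.08 ± 1.07 in neural and 5.51 ± 0.53 in ventral mesoderm explants from stage 9 to stage 13 (adjusted p = 2.9e-05, 0.0041 and 6.0e-05). The neural and ventral mesoderm rises of notch2.S were 5.1 and 5.44 without replicate 1 (adjusted p = 0.014 and 0.00064). These sizes belong to the S copy alone, and those of the L copy are not given. With both copies summed, notch2 rose by 1.79 in epidermal, 2.30 in neural and 2.09 in ventral mesoderm explants on the log2(TPM + 1) scale. Adding 1 shrinks changes that start from low levels. Of the remaining receptors, notch3 stayed at 1.71 to 11.8 TPM and notch4 at 0 to 1.19 TPM.

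The transcriptional repressor hes1, a classic Notch target in many vertebrate tissues, separated neural explants from the other lineages in mid-gastrulation. At stage 11 it was at 105, 246 and 109 TPM in neural explants, 13.9, 14.6 and 15.9 TPM in epidermal explants, and 62.0, 35.7 and 77.0 TPM in endoderm explants. Ventral mesoderm explants had 8.57, 16.8, 19.7, 9.86 and 7.40 TPM at that stage. Every neural library was above every library of the other lineages. The difference between neural and epidermal explants was 2.78 ± 0.30 for hes1.L and 4.19 ± 0.38 for hes1.S (adjusted p = 0.0011 and 0.00045, kept in all 3 leave-out fits). The stage 11 comparison of these lineages called 8 of the 55 rows, 3 of them higher in neural explants, where 2.65% of all genes were called (1.44% higher and 1.21% lower). By stage 13 the neural libraries had 20.3, 160 and 91.6 TPM, so that replicate 1 fell below the epidermal libraries at 32.8, 40.9 and 47.2 TPM. The stage 13 difference was not called for either copy (hes1.L 0.65 ± 0.57 and hes1.S 1.45 ± 0.64, adjusted p = 0.53 and 0.22). Without replicate 1 both copies were called higher in neural explants (hes1.L 1.11 and hes1.S 1.62, adjusted p = 0.038 and 0.027).

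The related repressor gene hes2 was also higher in neural than in the other explants at stage 11. At stage 9 all lineages overlapped, at 8.89 to 63.1 TPM. At stage 11 neural explants had 43.3, 90.3 and 37.1 TPM against 8.37, 12.0 and 12.1 TPM in epidermal explants, and hes2.L was 2.31 ± 0.34 higher in neural explants (adjusted p = 0.0074, kept in all 3 leave-out fits). Ventral mesoderm and endoderm libraries were at 0 to 6.17 TPM by then. From stage 9 to stage 13, hes2.L changed by -3.49 ± 0.30 in ventral mesoderm and by -3.06 ± 0.39 in endoderm explants (adjusted p = 3.6e-05 and 0.00023). The ventral mesoderm change was -3.61 without replicate 1 (adjusted p = 0.00028). Epidermal explants kept 4.16, 11.6 and 12.1 TPM at stage 13, above the ventral mesoderm libraries of that stage at 2.04 to 3.12 TPM.

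The repressor gene hes4, known as hairy2 in the frog literature, had the highest mean level of all members in most groups after stage 9. In epidermal explants it was at 108, 80.7 and 96.8 TPM at stage 9 and at 381, 317 and 376 TPM at stage 10.5, and at stage 13 at 149, 264 and 199 TPM. Endoderm explants were at 64.7, 63.8 and 49.3 TPM at stage 9, 220, 240 and 216 TPM at stage 10.5, and 123, 94.4 and 115 TPM at stage 13. Stage 13 libraries were thus below all stage 10.5 libraries in both lineages, while neural libraries were at 268 to 376 TPM at stage 13. Only the L copy had a count row. At stage 13, hes4.L was lower in endoderm than in epidermal explants (-1.23 ± 0.21, adjusted p = 0.0024, kept in all 3 leave-out fits). It was the member row with the earliest call in untreated explants, up by 1.18 ± 0.20 from stage 9 to stage 10 (adjusted p = 0.042, in 1 of 3 leave-out fits).

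**Figure D3:**
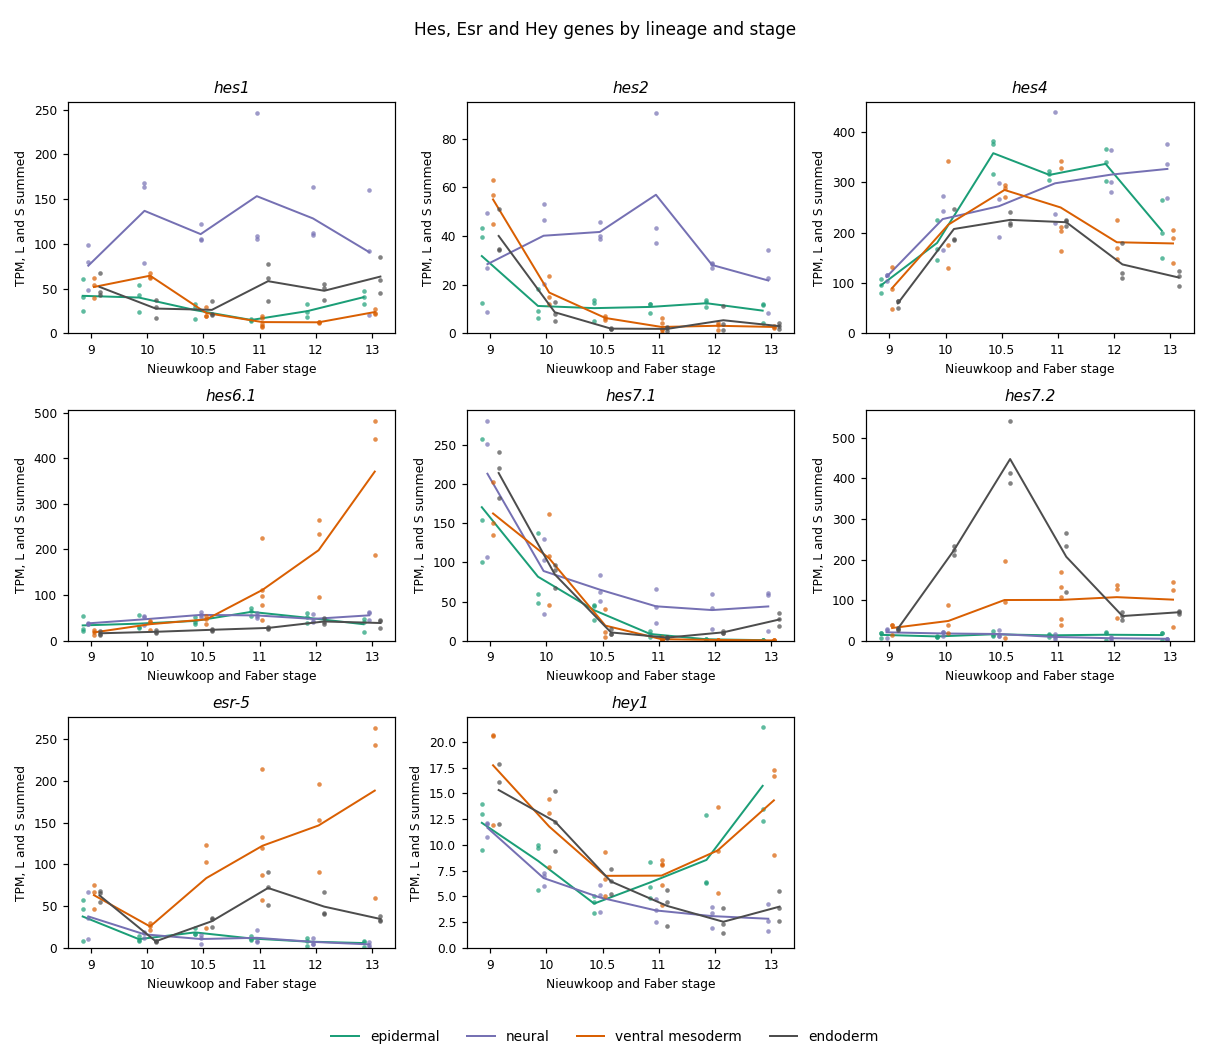
TPM (L and S summed) of hes1, hes2, hes4, hes6.1, hes7.1, hes7.2, esr-5 and hey1 against stage, with 1 point per library and a line through each lineage's mean. The neural line is the highest for hes1 and hes2 at stage 11, the endoderm line peaks at stage 10.5 for hes7.2, and the ventral mesoderm line climbs to stage 13 for hes6.1 and esr-5.

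The 3 genes hes7.1, hes7.2 and esr-5 lie close together on chromosome 3L in RefSeq, with 7 genes between esr-5.L and hes7.2.L and 3 between hes7.2.L and hes7.1.L, yet they followed different courses. The gene hes7.1, whose mouse relative Hes7 runs the segmentation clock, was at 100 to 281 TPM in all stage 9 libraries. In epidermal explants it went from 100, 258 and 154 TPM to 0.27, 0.96 and 0.32 TPM at stage 13, and hes7.1.L changed by -8.02 ± 0.62 (adjusted p = 3.6e-05). Ventral mesoderm libraries likewise ended at 0.13, 0.16 and 0.24 TPM. Neural explants fell less far, from 107, 281 and 252 TPM to 58.3, 12.0 and 60.7 TPM at stage 13 (hes7.1.L -1.87 ± 0.60, adjusted p = 0.040, and -2.44 without replicate 1, adjusted p = 0.038), and endoderm explants had it again at 35.5, 18.0 and 27.4 TPM after a low of 3.10 to 4.17 TPM at stage 11. These stage 13 groups did not overlap with the epidermal libraries. In hes7.1.L the neural and endoderm explants were 6.49 ± 0.85 and 6.03 ± 0.60 above epidermal explants (adjusted p = 0.0050 and 0.00013, kept in all 3 leave-out fits). The neural difference was 5.76 without replicate 1 (adjusted p = 0.011).

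The gene hes7.2 marked the endoderm explants at the onset of gastrulation. It was at 29.0, 27.0 and 31.2 TPM there at stage 9, at 212, 224 and 233 TPM at stage 10, and at 388, 542 and 414 TPM at stage 10.5. The rise from stage 9 to stage 10 was 5.08 ± 0.24 for hes7.2.S and 1.69 ± 0.21 for hes7.2.L (adjusted p = 4.9e-05 and 0.0047), the former kept in all 3 leave-out fits and the latter in 1. Epidermal explants at stage 10.5 had 10.1, 13.4 and 23.1 TPM, below every endoderm library, and the difference was 5.08 ± 0.27 for hes7.2.S and 4.20 ± 0.38 for hes7.2.L (adjusted p = 1.5e-05 and 0.00048). Ventral mesoderm explants at that stage were spread, at 7.48, 197 and 95.6 TPM, the low value being replicate 1, which also had the fewest ventral mesoderm markers of the group. By stage 13 endoderm explants were at 65.7, 73.97 and 69.8 TPM and ventral mesoderm explants at 32.9, 145 and 126 TPM, so these lineages overlapped.

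The Esr gene esr-5, a bHLH-Orange repressor of the Hes and Esr class, was present at stage 9 in all lineages, at 8.78 to 75.2 TPM. In endoderm explants it fell from 55.2, 65.4 and 67.6 TPM to 8.33, 8.38 and 6.99 TPM at stage 10 and came back to 90.9, 51.4 and 72.8 TPM at stage 11. The row esr-5.L changed by -3.14 ± 0.27 over the first of these steps and by 2.42 ± 0.32 over the second, from stage 10 to stage 10.5 (adjusted p = 0.00096 and 0.0034, in 3 and 2 of 3 leave-out fits). Over the stage 9 to 10 step hes7.2 rose while esr-5 fell in the same libraries. At stage 13 ventral mesoderm explants had 59.2, 263 and 242 TPM and epidermal explants 1.06, 8.62 and 7.65 TPM, without overlap, and esr-5.L was 6.28 ± 0.94 higher in ventral mesoderm (adjusted p = 0.035). That call was kept without replicate 1 (6.25, adjusted p = 2.0e-05) and lost without replicate 2 (adjusted p = 0.29) or 3 (adjusted p = 0.23). The low ventral mesoderm library was replicate 1, the library with 95.6 TPM of segmentation genes. The part of the segmentation genes in this difference was not tested.

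Of the remaining Hes and Hey genes, hes3 was at 65.1 TPM in replicate 1 of the neural stage 13 group and at 9.52 and 12.9 TPM in the others. It was listed at 0 in all 3 endoderm libraries of that stage and was at 0 to 0.80 TPM in epidermal and ventral mesoderm libraries, so neural explants lay above the rest with and without that replicate. The gene hey1, a Hey repressor known as a Notch target in vessels and heart, was at 9.46 to 20.7 TPM at stage 9 in all lineages and at 21.4, 13.5 and 12.3 TPM in epidermal explants at stage 13, against 1.61, 4.29 and 2.59 TPM in neural explants. These did not overlap, and hey1.L was lower in neural explants (-2.87 ± 0.52, adjusted p = 0.018). The call was kept without replicate 1 (-2.33, adjusted p = 0.0089) or 2 and lost without replicate 3. It was also lower in endoderm explants, which had 5.57, 2.6 and 3.85 TPM (-2.60 ± 0.42 against epidermal, adjusted p = 0.0018, in all 3). In no library did hey2 pass 1.14 TPM.

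The hes5 genes formed the largest family, with 10 genes. In the RefSeq annotation hes5.3 to hes5.10 are 8 consecutive genes on chromosome 7L and again on chromosome 7S, and hes5.2 and hes5.1 lie side by side elsewhere on the same chromosomes. Such neighbouring copies can share reads, so how reads were divided among them in the deposited tables is uncertain. At stage 9 the 7 genes hes5.3 to hes5.9 summed to 21.3 to 113 TPM over the 12 libraries of the 4 lineages. At stage 10.5 they were at 5.18 to 23.3 TPM over the 12 libraries of that stage. From there ventral mesoderm explants rose, with 111, 401 and 328 TPM at stage 12 and 283, 751 and 696 TPM at stage 13. Epidermal explants had 144, 131 and 110 TPM at stage 13, below every ventral mesoderm library. Neural explants had 13.3, 32.2 and 8.62 TPM and endoderm explants 21.7, 30.0 and 30.9 TPM, which overlapped with each other and not with the rest.

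Single genes of the cluster did not all keep this order at stage 13. The gene hes5.3 was at 69.6, 57.2 and 41.3 TPM in epidermal, 57.7, 115 and 97.4 TPM in ventral mesoderm, 1.27, 1.94 and 1.17 TPM in neural and 0.98, 0.67 and 0.19 TPM in endoderm explants. Epidermal and ventral mesoderm libraries overlapped, and hes5.3.S was not called between them (0.43 ± 0.30, adjusted p = 0.49, and 0.82 without replicate 1, adjusted p = 0.063). The L copy gave 44 ± 8.84% (SD) of hes5.3 TPM in epidermal and 57.5 ± 2.85% in ventral mesoderm explants, so the S row does not stand for both copies. The L copy was tested under the older name hes3.3.L, and its values are not given here. Against epidermal explants hes5.3.S was at -6.82 ± 0.52 in neural and -6.64 ± 0.63 in endoderm explants (adjusted p = 0.00058 and 0.00011), and these calls were kept in all 3 leave-out fits, the neural difference being -7.09 without replicate 1 (adjusted p = 0.00014). The gene hes5.9, by contrast, separated ventral mesoderm (35.8, 125 and 112 TPM) from epidermal explants (9.30, 12.3 and 10.0 TPM), with hes5.9.S 2.32 ± 0.46 higher in ventral mesoderm (adjusted p = 0.046). The call was kept without replicate 1 (2.70, adjusted p = 0.00064) and lost without replicate 2 or 3 (adjusted p = 0.33 in both). The gene hes5.8, which has no count row, separated these lineages by more. It was at 62.0, 141 and 178 TPM in ventral mesoderm and 2.47, 5.63 and 6.75 TPM in epidermal explants. From stage 9 to stage 13 epidermal hes5.8 fell (-2.09 on the log2(TPM + 1) scale) while epidermal hes5.9 rose (2.06). The stage 9 levels of hes5.8, 39.2 to 59.2 TPM in ventral mesoderm and 49.5 to 62.9 TPM in endoderm explants, were the highest of any hes5 gene in those lineages at that stage.

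The last gene of the cluster, hes5.10, did not follow the others. It was high in every lineage at stage 13, at 75.2, 122 and 187 TPM in epidermal, 76.5, 262 and 277 TPM in neural, 100, 164 and 159 TPM in ventral mesoderm and 214, 145 and 140 TPM in endoderm explants. All 4 lineages overlapped. Its L copy, which the count table lists under the older name hes3.1.L, rose from stage 9 to stage 13 in each lineage, by 3.66 ± 0.80 in epidermal, 2.78 ± 0.47 in neural, 5.06 ± 0.42 in ventral mesoderm and 4.24 ± 0.45 in endoderm explants (adjusted p = 0.0061, 0.0035, 3.2e-05 and 9.8e-05). Without replicate 1 the neural and ventral mesoderm rises were 2.85 and 5.31 (adjusted p = 0.00059 and 0.00025). At stage 13 hes3.1.L was not called between neural and epidermal explants (0.42 ± 0.47, adjusted p = 0.62), nor without replicate 1 (0.48, adjusted p = 0.21). The outlying gene hes5.1 kept to the order of the hes5.3 to hes5.9 sum, at 19.0, 66.7 and 33.8 TPM in ventral mesoderm and 10.2, 10.0 and 11.0 TPM in epidermal explants against 0.24 to 3.81 TPM in the other lineages.

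**Figure D4:**
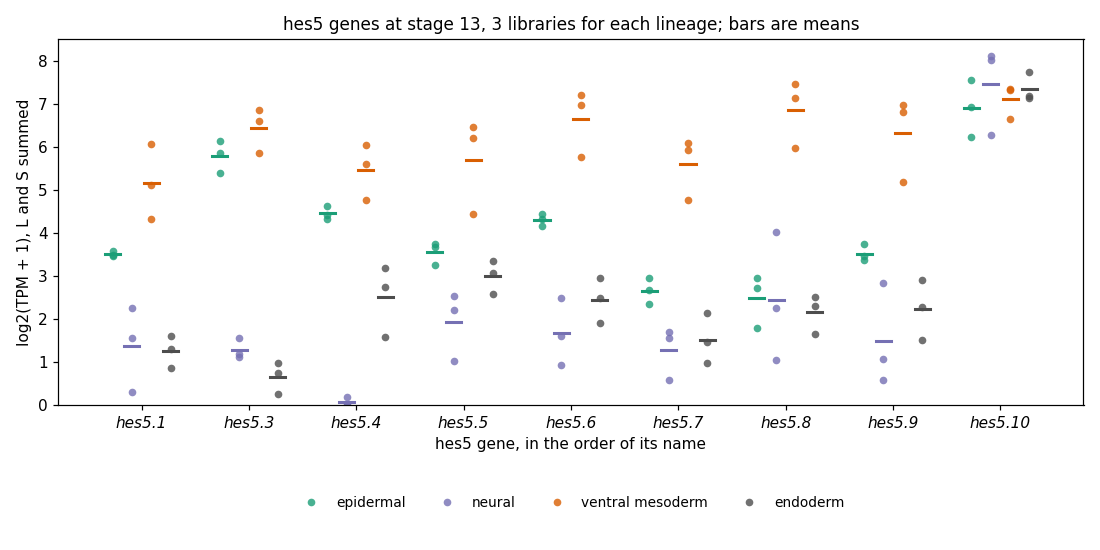
Levels of 9 hes5 genes at stage 13 as log2(TPM + 1), L and S summed, with 1 point per library, 3 libraries for each lineage and bars at the means of the log values. The ventral mesoderm libraries lie highest for most genes, neural and endoderm libraries lie near the bottom, and the hes5.10 libraries of all lineages overlap.

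Next to these repressors, hes6.1 had the highest mean level of all members in ventral mesoderm at stages 12 and 13. Its libraries there had 18.0, 24.1 and 11.4 TPM at stage 9, 96.2, 233 and 265 TPM at stage 12, and 188, 483 and 441 TPM at stage 13. Epidermal explants had 17.9, 41.4 and 48.3 TPM at stage 13, neural explants 59.4, 44.3 and 62.3 TPM, and endoderm explants 42.1, 45.0 and 28.5 TPM. Every ventral mesoderm library was above all others at stage 13, replicate 1 included. From stage 9 to stage 13 hes6.1.L rose by 5.05 ± 0.42 in ventral mesoderm (adjusted p = 4.0e-05), or by 5.55 without replicate 1 (adjusted p = 3.2e-05). At stage 13 it was 4.41 ± 0.39 higher than in epidermal explants (adjusted p = 0.0067), and endoderm explants were at -4.52 ± 0.38 against ventral mesoderm (adjusted p = 0.00019, in all 3 leave-out fits). Without replicate 1 these differences were 4.58 and -4.83 (adjusted p = 1.8e-05 and 2.8e-06). The first of them was lost without replicate 2 (adjusted p = 0.15). The neighbouring gene hes6.2, with no gene between, did not pass 2.55 TPM in any library.

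Over the whole course from stage 9 to stage 13, members that were called rose more often than they fell. In epidermal explants 29 rows rose and 7 fell of 55, where 54.7% of all genes were called (27.8% higher and 26.9% lower). In ventral mesoderm explants 36 rose and 6 fell, where 54.6% of all genes were called (28.4% and 26.3%). In endoderm explants 20 rose and 13 fell, where 61.4% of all genes were called (32.5% and 28.9%). In neural explants 15 rose and 4 fell, where 40.1% were called (21.7% and 18.3%). The share of rows called was thus above that of all genes in epidermal (65.5%) and ventral mesoderm explants (76.4%). It was below that share in neural explants (34.5%) and near it in endoderm explants (60%). The rows hold L and S copies apart and many hes5 rows, whose neighbouring copies can share reads. They are therefore not independent members, in these shares and medians or in those below. The median log2 fold change of the 55 rows was 1.36 in epidermal, 0.91 in neural, 3.64 in ventral mesoderm and 0.49 in endoderm explants, against 0.00, 0.21, 0.07 and 0.15 for all genes tested. Without replicate 1 the neural and ventral mesoderm medians of the members were 0.31 and 3.62. Leaving out replicate 1, 2 or 3 gave 18, 10 and 8 called rows in neural and 41, 35 and 34 in ventral mesoderm explants. Here and below, no share of all genes is set beside counts from fits that leave out a replicate. Such counts show the dependence on replicates and are no result about the members. The values above for stage 9 to stage 13 rest on TMM scaling. With library totals in its place, an alternative chosen after seeing the data, the medians of all genes were -0.49, -0.09, -0.46 and -0.26, and the rows that rose and fell were 24 and 10, 15 and 6, 34 and 7, and 18 and 18, in the order of lineages just given. No called member changed direction under it, but the epidermal calls of hey1.L, hey1.S, hes6.1.S, hes5.5.L and notch1.S, the ventral mesoderm calls of hes5.2.S and hes7.2.L and the endoderm calls of notch3.L and esr-5.S were lost.

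Few members separated the lineages at stage 9, when treatment with activin or the BMP heterodimer began. Calls between lineages at that stage are not read as responses to treatment. No member was called in 5 of the 6 comparisons between lineages at that stage. The share of all genes called in them was 0.00365% for epidermal against neural, 0% for epidermal against ventral mesoderm, 0.0146% for epidermal against endoderm, 0.168% for neural against ventral mesoderm and 0.00729% for ventral mesoderm against endoderm explants. In these 5 comparisons 2 to 15 member rows had an unadjusted p under 0.05, and 2202 to 4623 of all 27424 genes did. The 2 rows were in epidermal against neural explants, where 2202 genes had such a p. The 15 rows were in epidermal against endoderm explants, where 4623 genes had it. The DESeq2 test called 0 to 7 member rows, and no share of all genes is set beside that. The exception was neural against endoderm explants, where 2 rows were called and 1.63% of all genes were (hes4.L -0.93 ± 0.16 and hes6.1.S -1.94 ± 0.27 in endoderm, adjusted p = 0.038 and 0.027), and leaving out replicate 1, 2 or 3 left 0 of these calls. At stage 13 the share of rows called was above that of all genes in each of the 6 comparisons. Neural and epidermal explants differed in 13 rows, 3 of them higher in neural explants, where 4.74% of all genes were called (1.77% higher and 2.98% lower). Leaving out replicate 1, 2 or 3 of each group gave 25, 11 and 7 rows. Ventral mesoderm was higher than epidermal explants in 15 rows and lower in none, where 1.79% of all genes were called (1.15% higher and 0.645% lower). The DESeq2 test called 22 rows there and 9.18% of all genes. All 15 rows were Hes or Esr genes, namely esr-5, hes6.1, hes7.2 and rows of the hes5 and hes9 names, and no ligand or receptor row was among them. The ligand genes nonetheless summed to 153, 289 and 308.9 TPM in ventral mesoderm and to 136.3, 136.3 and 120.9 TPM in epidermal explants, without overlap. The receptor sums of these lineages overlapped. A missing ligand call is thus not read as equal levels.

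That last comparison depended on the replicates, with 24 rows called without replicate 1 of each group, 0 without replicate 2 and 2 without replicate 3. The share of all genes called in such fits is not given, so whether the members depended on the replicates more than other genes was not tested. Ventral mesoderm was higher than neural explants in 26 rows and lower in 6, where 3.57% of all genes were called (2.01% and 1.55%), and the count was 34, 18 and 5 without replicate 1, 2 and 3. Endoderm explants differed from epidermal explants in 25 rows, 10 of them higher, where 33.7% of all genes were called (17.9% higher and 15.8% lower), and in 24, 16 and 15 rows without replicate 1, 2 and 3. They differed from neural explants in 12 rows, 7 of them higher, where 8.89% of all genes were called (5.69% and 3.2%), a count that was 19, 4 and 1 without replicate 1, 2 and 3. Endoderm explants were higher than ventral mesoderm in 9 rows and lower in 26, where 29.5% of all genes were called (14.9% and 14.7%), and the total of 35 became 33, 26 and 20 without replicate 1, 2 and 3. Of the 6 comparisons, the share of rows called was nearest to that of all genes in endoderm against epidermal explants.

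**Figure D5:**
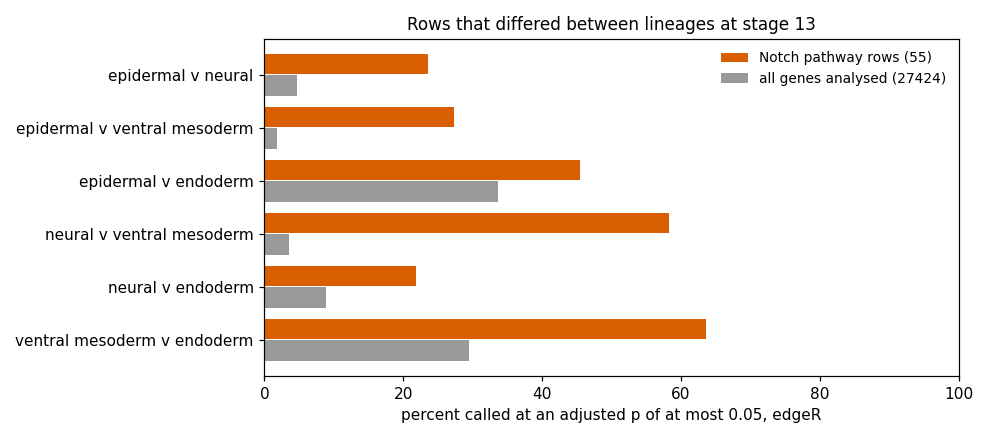
Percent of the 55 Notch pathway rows and of the 27424 genes analysed that were called at an adjusted p of at most 0.05 (edgeR) in each comparison of lineages at stage 13; bars start at 0. The pathway rows lie above all genes in every comparison, by most in neural against ventral mesoderm (58.2% against 3.57%) and by least in epidermal against endoderm (45.5% against 33.7%).

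Between successive stages the calls depended on whether replicates were paired by number. Without pairing, 48 member calls were made over the 5 endoderm steps, with 16, 12, 6, 7 and 7 in turn, where 6.56%, 12%, 7.86%, 7.96% and 7.52% of all genes were called. Over the same steps there were 10 member calls in ventral mesoderm explants, where 0.729%, 0%, 0.00729%, 1.24% and 3.79% of all genes were called. There were 2 calls in neural explants, both from stage 9 to stage 10, where 3.22% of all genes were called against 1.69% in the next step and 0% in the rest. The single epidermal call, that of hes4.L, fell in the first step, where 2.05% of all genes were called, and the other 4 epidermal steps had 0%. In the 10 of those 15 steps with 0 member calls, 1 to 26 rows had an unadjusted p under 0.05. Of all 27424 genes, 1199 to 5178 had such a p in these steps. The 26 rows were in the epidermal step from stage 11 to stage 12, where 4791 of all genes had it. The DESeq2 test called 0 to 12 member rows in these steps, and no share of all genes is set beside that. The ventral mesoderm calls were 6 from stage 11 to stage 12, 3 from stage 12 to stage 13 and 1 in the first step. From stage 12 to stage 13 they became 8, 0 and 0 without replicate 1, 2 and 3, and the endoderm calls of that step 3, 0 and 0.

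With the replicate number as a block, which the deviations of like-numbered libraries bore out in 19 of 20 steps, 95 member calls were made in epidermal, 41 in neural, 95 in ventral mesoderm and 114 in endoderm explants. The share of all genes called over the 5 steps was then 35.9%, 33.9%, 27.1%, 27.7% and 25.9% in epidermal explants, and 25.3%, 30.1%, 5.49%, 21.1% and 0% in neural explants. In ventral mesoderm explants it was 19.6%, 31.4%, 2.46%, 31.3% and 25.9%, and in endoderm explants 27.8%, 38.6%, 33.8%, 33.8% and 32.4%. In epidermal explants the step from stage 10 to stage 10.5 then held 17 member calls, where 33.9% of all genes were called. Among them were the ligand rows dlc.L (5.38, adjusted p = 4.4e-12) and dll1.L (3.55, adjusted p = 7.0e-10) and the receptor row notch1.L (1.52, adjusted p = 1.8e-09). From stage 11 to stage 12 there were 29 calls in epidermal explants (27.7% of all genes) and 33 in ventral mesoderm explants (31.3% of all genes). The share of member rows called in these steps, 29 and 33 of 55, was above that of all genes, whereas 17 of 55 was not. From stage 12 to stage 13 in ventral mesoderm, 27 rows were called (25.9% of all genes), among them hes6.1.L (1.29, adjusted p = 1.2e-06) and hes5.3.S (1.94, adjusted p = 7.2e-06). The step in which pairing was not borne out was ventral mesoderm from stage 10.5 to stage 11 (correlation 0.73, 0.09 and -0.09). Its 7 calls with the block are part of the ventral mesoderm total of 95.

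The L and S copies did not contribute alike, nor evenly through time. The L copy gave 14.6 ± 2.27% (SD, n = 3) of notch1 TPM in epidermal explants at stage 9 and 50.8 ± 1.94% at stage 13. In endoderm explants it gave 10.1 ± 5.28% and 59.4 ± 2.99%, and in ventral mesoderm explants 5.47 ± 2.37% and 30.3 ± 2.29%. The early libraries were thus dominated by notch1.S, and the later ones were closer to balance. For hes7.2 the share moved the other way, from 84.1 ± 3.49% L at stage 9 to 18.6 ± 5.94% at stage 13 in epidermal explants and from 83.6 ± 4.47% to 29.0 ± 6.38% in endoderm explants. Lineages also differed at stage 13. The L copy gave 84.5 ± 0.785% of hes5.10 in ventral mesoderm and 51.3 ± 8.69% in endoderm explants, and 42.9 ± 1.71% of hes6.1 in ventral mesoderm against 24.4 ± 6.91% in epidermal explants. In each of these contrasts the lowest library of the higher group lay above the highest library of the lower group.

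Other genes of the pathway, taken from lists of 40 components (35 found and tested as 61 rows) and 8 further feedback targets (7 found, 13 rows), were described in the same way at stage 13. In neural against epidermal explants 1 component row was lower, and 1 feedback row was higher and 1 lower, where 4.74% of all genes were called. Leaving out replicate 1, 2 or 3 gave 14, 2 and 0 component rows and 7, 0 and 0 feedback rows. Between ventral mesoderm and endoderm, 7 component rows were higher and 11 lower in endoderm, so that the share of component rows called, 29.5%, was the same as that of all genes. Their median was 0.04 against 0.10 for all genes, and leaving out replicate 1, 2 or 3 gave 11, 9 and 10 called rows. Among the higher were the Fringe glycosyltransferase rows lfng.L and lfng.S, whose product alters how Notch responds to its ligands, at 4.84 ± 0.56 and 3.05 ± 0.26 (adjusted p = 0.0012 and 0.00011), and numbl.L, a relative of the Notch inhibitor Numb, at 2.61 ± 0.37 (adjusted p = 0.0012). Among the lower were furin.L, which encodes a protease that cuts the Notch precursor, at -1.64 ± 0.33 (adjusted p = 0.0062), and fbxw7.L, part of a ubiquitin ligase that marks the Notch intracellular domain for breakdown, at -1.20 ± 0.24 (adjusted p = 0.0063). Of the feedback rows 3 were higher and 5 lower in endoderm. Among the lower were nrarp, whose product binds the Notch intracellular domain and dampens its signal, at -3.41 ± 0.35 (adjusted p = 0.00047), nrarp.S at -2.79 ± 0.35 (adjusted p = 0.0013), and myc.L, a growth regulator, at -3.16 ± 0.20 (adjusted p = 2.6e-05). Without replicate 1 these 3 were at -3.81, -3.34 and -3.18, lfng.L, lfng.S and numbl.L at 5.81, 3.33 and 2.21, and furin.L and fbxw7.L at -1.42 and -1.23, all called. The row nrarp was also 2.61 ± 0.40 higher in ventral mesoderm than in neural explants (adjusted p = 0.014), or 3.26 without replicate 1 (adjusted p = 0.00019).

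Genes of the programs that Notch acts on were described at stage 13 as well. The 10 multiciliated cell genes (10 of 10 found) summed to 1300 to 1430 TPM in epidermal explants at stage 13, 147 to 482 TPM in ventral mesoderm, 105 to 301 TPM in neural and 103 to 137 TPM in endoderm explants, where gmnc, an early regulator of the program, was listed at 0. Of their 19 rows, 11 were lower in neural than in epidermal explants where 2.98% of all genes were lower, and 16 were lower in endoderm explants, where 15.8% of all genes were. Without replicate 1, 2 and 3 the rows called in neural explants were 15, 11 and 6. The segmentation genes (11 of 12 found, 22 rows) had 7 rows higher in ventral mesoderm than in epidermal explants, with a median of 4.58, where 1.15% of all genes were higher. These calls were 13, 0 and 0 without replicate 1, 2 and 3. In endoderm explants 16 rows were higher than in epidermal explants, where 17.9% of all genes were. The 16 proneural and early neuron genes (15 found, 25 rows) had 2 rows higher and 2 lower in neural than in epidermal explants. Of all genes, 4.74% were called there (1.77% higher and 2.98% lower). For the proneural list, 11, 3 and 2 rows were called without replicate 1, 2 and 3. The ionocyte and small secretory cell markers summed to 128 to 279 TPM in epidermal explants and to 15.7 to 112 TPM in the other lineages. The muscle and notochord markers summed to 111 to 645 TPM in endoderm and 18.1 to 386 TPM in neural explants. At stage 13 the muscle and notochord markers chrd and myf5 were listed at 0 in epidermal explants. Of the proneural genes, atoh7, neurod4 and neurog1 were listed at 0 in epidermal explants at stage 13. In neural explants this held for neurod4, and in ventral mesoderm explants for atoh7 and neurod1. The part of any of these cell types in the levels of the Notch members was not tested.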

How the data were processed

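RNA-seq libraries of 74 pooled explant samples were analysed. The authors aligned reads with STAR to the Xenbase genome of X. laevis and deposited raw counts per gene, and they mapped the reads with RSEM to deposit TPM values; read quality was checked with FastQC per the labels. The 2 tables use partly different gene names. Counts were tested with edgeR 4.0.16 (quasi-likelihood F test, robust, TMM scaling) in R 4.3.3, on the 27424 genes that reached 15 counts in some library, comparing successive stages within a lineage, stage 9 with stage 13, and lineages at the same stage. A gene was called where the p adjusted after Benjamini-Hochberg over all genes was 0.05 or less, and the standard error was taken as the fold change over the root of F. DESeq2 1.42.0 was an alternative. No fold change is given where a group was at or under 3 counts per library. L and S copies were tested apart and summed for TPM. On simulated data for neural against ventral mesoderm at stage 13, edgeR recovered 29% of 200 genes changed 4-fold, with 9 false calls, and for endoderm stage 9 to 10 it recovered 77%, with 22. DESeq2 recovered 68% and 91%, with 80 and 87 false calls. The 200 changed genes were drawn only from genes above a minimum expected count, and all others were left unchanged. Recovery of rows with few counts was therefore not measured.

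Libraries were grouped by their titles. Like-numbered libraries deviated together in 19 of 20 steps (correlation over 0.1 in each of the 3 pairs), in 3 of 4 comparisons of stage 9 with 13 and in 4 of 36 comparisons between lineages, so a fit with a term for the replicate number (replicate block) accompanies the steps. Of the TPM columns, 70 of 74 matched the count column of the same name best; the other 4, replicates 2 to 5 of ventral mesoderm at stage 11, matched another replicate of the same group (correlation 0.866 to 0.908, but 0.446 for replicate 4, which matched none clearly). Values per library are given for members that reached 10 TPM in a group. Of the other pathway genes, at most 3 rows per direction and comparison were named, those with the largest fold change among called rows reaching 10 TPM. Gene order and synonyms came from the RefSeq annotation of a later genome build than the files', so no coordinates are given. Members, lists and alternatives were chosen with earlier results of these data known. Alternatives were RLE scaling, DESeq2, no filter, filterByExpr, a single fit of all libraries, L and S counts summed, 3 of the 5 ventral mesoderm stage 11 replicates, the block and leaving out each replicate number, and, added after seeing the data, library totals. Python 3.11.15, numpy 2.4.6, scipy 1.17.1, pandas 2.3.3 and matplotlib 3.10.9 were used.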

Additional observations from a re-analysis of the deposited data

Results flagged for a closer look

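In ventral mesoderm at stage 11, the only group large enough for the check, dlc was at 97.61 TPM in the column of replicate 2 against 53.1 to 58.6 TPM in the other 4, a gap that passed Dixon's test at the 95% level. It was 1 of 23 member genes tested in that group, and chance alone flags about 1 in 20. The TPM columns of replicates 2 to 5 in that group do not carry the same numbers as their best matching count columns, so the library is named by its TPM column.

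From stage 9 to stage 13, 4 of the 23 genes moved in opposite directions in different lineages, with no overlap between the stages in either lineage. These were hes5.6, hes5.7 and hes5.8, up in ventral mesoderm and down in endoderm explants, where the change in ventral mesoderm exceeded that in endoderm by 4.63, 4.78 and 4.80 on the log2(TPM + 1) scale. The fourth was hes7.2, down in neural and up in endoderm explants, with a neural minus endoderm difference of -2.96. The differences between lineages were not tested. For each gene only the pair of lineages furthest apart is given. In epidermal explants hes5.6 and hes5.7 also rose (1.47 and 1.15), and hes5.8 fell there (-2.09) and in neural explants (-2.48). The share of all genes that moved in opposite directions was not computed, so the count of 4 is no result about the members.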

How the results depend on the processing

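Of the 604 calls of members over 60 comparisons, 592 kept their direction and call under DESeq2, 597 under RLE scaling, 574 under library totals, 544 with the replicate block and 544 in a single fit of all libraries. Leaving out replicate number 1, 2 or 3 kept 489, 354 and 343 of them. Direction reversed for 5 calls, all when L and S counts were summed before the fit, which adds the other copy to the row: hes5_X2.S in epidermal explants from stage 9 to 13 (-1.61), jag1.S in ventral mesoderm (0.41), jag1.S (0.38) and esr-5.S (-0.20) in endoderm explants over the same stages, and notch3.L in ventral mesoderm against endoderm at stage 12 (-0.09).

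Over the 5 steps the member calls with the replicate block were 95 in epidermal (1 without it), 41 in neural (2), 95 in ventral mesoderm (10) and 114 in endoderm explants (48); with DESeq2 they were 29, 11 and 51 in the former 3 lineages, and in a single fit 17, 43 and 31 in epidermal, ventral mesoderm and endoderm explants. Epidermal explants had 4 calls with no filter, and neural explants had 1 with L and S summed, where fewer rows are tested. Leaving out a replicate gave 0 to 22, 0 to 0, 1 to 13 and 10 to 22 calls. For stage 9 against 13 (36, 19, 42 and 33 calls), summed copies gave 20, 25 and 20 in the same 3 lineages, and leaving out a replicate gave 8 to 18 in neural explants. The totals over stages 10 to 13 that follow count a row once for each stage at which it was called. No share of all genes is set beside them, so they show the dependence on settings and are no result about the members. Over stages 10 to 13, epidermal against neural explants had 44 calls, 75 with DESeq2, 27 with summed copies and 26 to 50 without a replicate. Epidermal against ventral mesoderm had 23, which became 60 with DESeq2, 45 in a single fit, 13 with summed copies and 1 to 51 without a replicate. For the other pairs (78, 94, 79 and 93 calls in the order epidermal against endoderm, neural against ventral mesoderm, neural against endoderm, ventral mesoderm against endoderm) leaving out a replicate gave 47 to 76, 49 to 93, 45 to 70 and 59 to 89, and summed copies gave 57 for neural against ventral mesoderm and 52 for neural against endoderm. The number of members reaching 10 TPM was 42 of 58 with copies apart. The block changed no direction. Apart from the summed copies, the causes were not tested.

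With 3 libraries per group the adjusted p-values of steps rest on few residual degrees of freedom, and which libraries share a frog is uncertain. Several libraries stood apart from their groups, ventral mesoderm was sequenced apart, and the neural explants had their own medium. How reads of near-identical hes5 copies were split is uncertain, and the symbols hes8, hes9-1, hes3.1.S and those with X1 or X2 were not matched to RefSeq names.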
